A study of Mus musculus with 3 samples.

Results

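The regions described here are 835 stretches of open chromatin that were called in mouse oligodendrocyte progenitor cells, were not called in control cells after 1 day of differentiation, and were called in cells without Seh1 after the same day. They were chosen from the authors' peak calls of all 3 libraries. A member is a peak of the control progenitor library on an autosome, with a summit pileup of at least 0.8 FPM, fragments per 1000000 fragments of its library (19 fragments or more). It is overlapped by 1 bp or more of a Seh1cKO day 1 peak and by no control day 1 peak. The members are 835 of the 34445 autosomal progenitor peaks of that strength (2.42%, exact 95% Clopper-Pearson interval 2.26 to 2.59) and of 108788 progenitor peaks in all. Presence or absence of a call in each library, and the progenitor pileup, are therefore the choice itself and are given as a description.

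Cells of C57BL/6 mice were purified with antibody-coated plates, from cortices taken on postnatal day 4 to 7, and ATAC-seq was run on 50000 cells per library. Control progenitors, labelled wild type and day 0, were kept in medium with PDGF-AA, CNTF, bFGF and NT3. To start differentiation, cells received triiodothyronine (T3, 60 nM) in medium without PDGF-AA, bFGF or NT3, so the effects of the hormone and of growth factor withdrawal cannot be told apart. The day 1 libraries were wild type control cells and Seh1cKO cells, in which Seh1 is deleted conditionally; the labels name neither the Cre driver nor the deleted exons. Each group is 1 library, so replicate error is unknown and no test between conditions was made; day 0 Seh1cKO cells were not analysed here. The progenitor library had 23403600 fragments and 108788 peaks, control day 1 had 18260883 and 118441, and Seh1cKO day 1 had 10845533 and 46113. The lowest pileup called was 9, 8 and 6 fragments in that order, or 0.385, 0.438 and 0.553 FPM. All 30 genes of a list of progenitor genes had a strong progenitor peak in their locus, as did 18 of 20 astrocyte, 17 of 22 neuron, 14 of 22 microglia and macrophage, and 14 of 24 endothelial and mural markers. Cell cycle genes (30 of 30) were no different from progenitor genes in this, so the count is not specific to a cell type.

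Oligodendrocyte progenitors divide in response to growth factors such as PDGF and leave the cell cycle to become myelin-forming oligodendrocytes. Thyroid hormone acts through nuclear receptors that bind DNA and recruit coactivators or corepressors, and it times this step in culture. During differentiation some regulatory elements of the progenitor state lose accessibility while those of myelin genes gain it. Seh1 is a subunit of the Nup107-160 complex of the nuclear pore. In ATAC-seq a transposase inserts adapters into accessible DNA, and a pileup is the number of sequenced fragments that cover a position.

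Sequence could be read for members at annotated gene starts, because RefSeq promoters (GRCm38.p6, the coordinates of mm10) were at hand. Of the 835 members, 66 touched the promoter window of an annotated start, 250 bases before to 50 after it, and between them they touched 78 such windows of 73 genes. The 250 bases before the start are printed for 5 of these. They were chosen after their values were seen, to show what a member at a start looks like at Btbd19, a BTB domain gene with a high progenitor pileup, at the Polycomb gene Pcgf2, at the circadian clock gene Per1, at Tspan2, a tetraspanin gene of myelinating cells, and at Zic1, a zinc finger transcription factor gene. Capitals mark matches, on either strand, to any of 9 short motifs given further on. The windows are chr4:117125659-117125908 on the minus strand, chr11:97699649-97699898 minus, chr11:69098699-69098948 plus, chr3:102734520-102734769 plus and chr9:91365769-91366018 minus.
Btbd19: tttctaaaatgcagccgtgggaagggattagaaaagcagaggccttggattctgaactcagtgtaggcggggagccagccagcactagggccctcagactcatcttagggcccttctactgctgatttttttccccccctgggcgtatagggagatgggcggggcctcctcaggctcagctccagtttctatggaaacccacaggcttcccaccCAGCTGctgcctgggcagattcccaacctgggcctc
Pcgf2: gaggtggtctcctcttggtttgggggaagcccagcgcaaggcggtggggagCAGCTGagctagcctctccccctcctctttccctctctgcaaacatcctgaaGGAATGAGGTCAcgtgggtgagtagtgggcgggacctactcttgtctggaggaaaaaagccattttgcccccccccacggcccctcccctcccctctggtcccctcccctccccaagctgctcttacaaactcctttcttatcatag
Per1: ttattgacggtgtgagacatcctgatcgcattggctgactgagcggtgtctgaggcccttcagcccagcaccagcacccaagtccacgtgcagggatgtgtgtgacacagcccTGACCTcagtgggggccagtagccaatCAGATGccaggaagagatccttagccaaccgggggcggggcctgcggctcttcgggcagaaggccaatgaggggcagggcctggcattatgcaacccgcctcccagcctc
Tspan2: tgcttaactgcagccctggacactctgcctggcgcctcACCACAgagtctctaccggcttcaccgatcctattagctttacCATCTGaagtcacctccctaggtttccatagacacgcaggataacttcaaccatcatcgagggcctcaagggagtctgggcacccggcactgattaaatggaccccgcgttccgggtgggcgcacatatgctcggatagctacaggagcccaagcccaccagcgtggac
Zic1: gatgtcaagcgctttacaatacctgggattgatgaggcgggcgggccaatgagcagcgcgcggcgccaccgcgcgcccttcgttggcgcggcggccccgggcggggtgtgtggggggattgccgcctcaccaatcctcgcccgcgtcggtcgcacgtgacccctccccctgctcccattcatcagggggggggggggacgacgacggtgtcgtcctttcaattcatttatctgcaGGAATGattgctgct
The member at Btbd19 (chr4:117125449-117125812) covered the last 154 of these bases and the start itself, and the CAGCTG match lay inside it. Its pileup was 41 fragments in progenitors (1.75 FPM) and 13 in Seh1cKO cells (1.20 FPM), with the nearest control day 1 peak 3987 bp away. At Pcgf2 (chr11:97699834-97700216) the values were 37 fragments (1.58 FPM) and 17 (1.57 FPM), and only 1 of the 3 matches, again CAGCTG, was inside the member. At Per1 (chr11:69098808-69098997) they were 30 (1.28 FPM) and 26 (2.40 FPM), with both matches inside. The Per1 member stood only 2.19-fold over local background in progenitors. The Tspan2 member (chr3:102734442-102734876) covered all 250 bases, with 20 fragments (0.855 FPM) and 18 (1.66 FPM). The Seh1cKO peak there also touched a control day 1 peak, which lay 43 bp from the member. At Zic1 (chr9:91365836-91366028) the pileups were 20 (0.855 FPM) and 13 (1.20 FPM), and its match lay outside the member.

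Most members were of modest strength in progenitors. Their progenitor pileup ran from 19 to 1643 fragments with a median of 22 (0.940 FPM, quartiles 0.855 and 1.15), so most sit just above the threshold that chose them. Their median width was 320 bp (101 to 938 bp) and their median fold enrichment over local background 5.59. Strong progenitor peaks called in no other library had a median width of 238 bp, those called in both control libraries 315 bp, and those called in all 3 libraries 574 bp. At a matched pileup of 19 to 27 fragments the 4 medians were 311, 236, 296 and 386 bp for members, progenitors alone, both control libraries and all 3 libraries. Members were thus wider than the peaks of progenitors alone at the same height (interval of the median 298 to 323 bp against 230 to 241 bp). Overlap by 1 bp is met more readily by a wide peak, and the part of width in the choice was not tested.

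Strong progenitor peaks without a control day 1 peak numbered 3240 (9.41% of 34445), and members are 25.8% of these (interval 24.3 to 27.3). Over all strong progenitor peaks Seh1cKO cells had 79.6%. Among those that had a control day 1 peak, the share was 85.2% of 31205. The gap between these shares was present at each strength. Between 0.8 and 0.9 FPM Seh1cKO cells had 20.9% of 1576 peaks without a control day 1 peak (18.9 to 23.0) and 59.2% of 4148 peaks with one. Between 1.5 and 2 FPM the shares were 43.2% of 118 (34.1 to 52.7) and 93.8% of 4818. At 2 FPM or more 16 of 37 peaks without a control day 1 peak were members (43.2%, 27.1 to 60.5), against 99.1% of 10587. The same count in the other direction, control day 1 peaks of at least 0.8 FPM that overlapped no progenitor peak, gave 2072 of 12407 in Seh1cKO cells (16.7%, 16.05 to 17.37). These shares rest on the same 3 libraries and were not tested against each other, and the Seh1cKO library had 46.3% of the progenitor fragments.

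**Figure D1:**
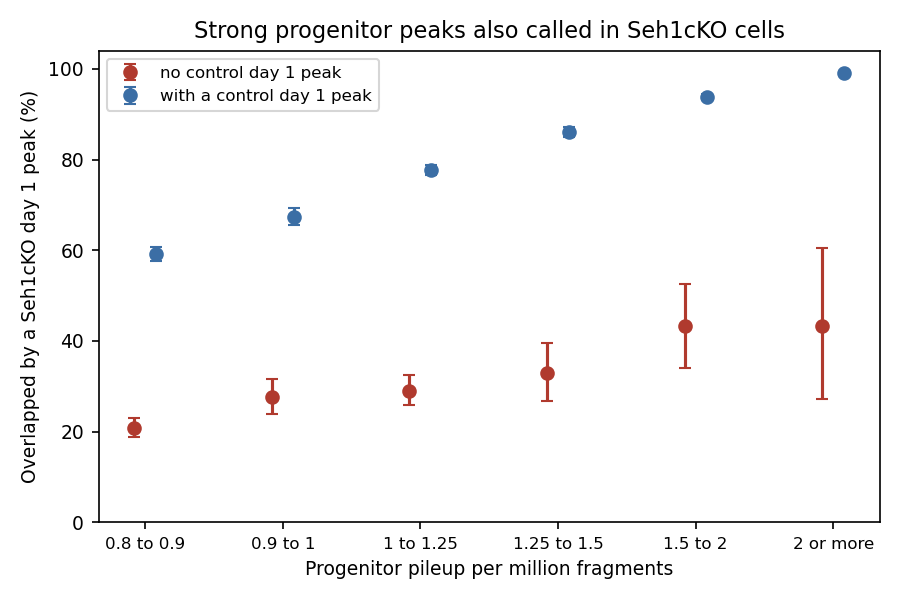
Share of strong progenitor peaks overlapped by a Seh1cKO day 1 peak (y axis, %) in bands of progenitor pileup in FPM (x axis), for peaks without (red) and with (blue) a control day 1 peak; bars are exact 95% intervals. The red points rise from 20.9% in the weakest band to 43.2% in the strongest and stay below the blue points, which rise from 59.2% to 99.1%.

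The control day 1 table gives no signal where no peak was called, so the members are sites without a call and not sites shown to be closed. Many members had a control day 1 peak close by: the gap to the nearest was 2017 bp at the median, and 238 members (28.5%) had one within 500 bp. For progenitor peaks called in no other library that share was 31.8% of 2405. At 74 members (8.86%) the Seh1cKO peak that overlapped the member also touched a control day 1 peak, so both lie under the same Seh1cKO peak.

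The Seh1cKO peaks that overlapped members had about the progenitor summit signal in FPM. Each Seh1cKO value is the summit pileup of the whole overlapping peak, and that summit can lie outside the member. Both values have a floor, 0.8 FPM in progenitors by the choice and 0.553 FPM in Seh1cKO cells by the lowest call. The part of these floors in the ratio of the values was not tested. Seh1cKO pileups ran from 6 to 708 fragments with a median of 11 (1.01 FPM), against 22 (0.940 FPM) in progenitors. The Seh1cKO FPM divided by the progenitor value had a median of 0.996 (interval 0.981 to 1.02, quartiles 0.822 and 1.28), and 412 members (49.3%) were higher in Seh1cKO cells. When each pileup was instead divided by the median pileup of its own list the ratio was 0.497, because the median Seh1cKO peak was stronger (1.20 FPM against 0.598). Progenitor peaks of 19 to 27 fragments called in all 3 libraries had a ratio of 1.18, and 67.4% of them were higher in Seh1cKO cells. For members in the same range the values were 1.02 and 51.7%. Both libraries were used to choose the members, so these ratios describe them only.

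Calls in Seh1cKO cells had a lower −log10 q than in progenitors, and most summits lay within 100 bp of the progenitor summit. The median −log10 q was 3.71, against 9.57 in progenitors, and 252 members (30.2%) reached 5. The Seh1cKO library had 46.3% of the progenitor fragments, and the part of depth in this difference was not tested. With 19 to 27 progenitor fragments the Seh1cKO median was 3.71 for members and 5.54 for peaks called in all 3 libraries. Seh1cKO peaks at members were 215 bp wide at the median and covered 57.1% of the member's width. With 19 to 27 progenitor fragments these medians were 218 bp and 57.3% for members. For peaks called in all 3 libraries they were 296 bp and 65.9%. Summits lay within 100 bp of each other at 587 members (70.3%) and within 50 bp at 355 (42.5%), with a median distance of 60 bp. Overlap was required of members and of peaks called in all 3 libraries, so close summits follow in part from the choice. For progenitor peaks called in all 3 libraries with 19 to 27 fragments the share within 100 bp was 67.6%, and for members in that range 68.1% (64.4 to 71.6).

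A subset departs from this. The 74 members whose Seh1cKO peak touched a control day 1 peak had a median ratio of 1.58, 89.2% were higher in Seh1cKO cells, and summits were 239.5 bp apart at the median. Without them the other 761 members had a ratio of 0.981, with 75.7% of summits within 100 bp. Another 61 members (7.31%, partly the same) stood less than 3-fold over their local background in progenitors. Their ratio was 1.54, and 55.7% had a control day 1 peak within 500 bp. Low fold was more frequent among strong peaks of progenitors alone (20.0%) and rare among those of all 3 libraries (0.790%).

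**Figure D2:**
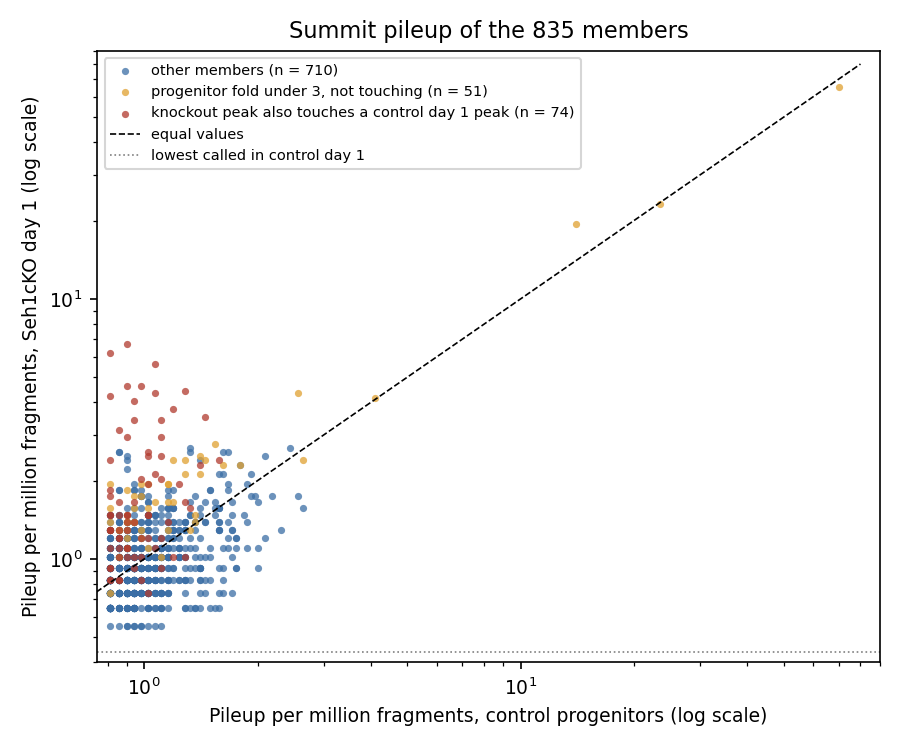
Summit pileup in FPM of each of the 835 members in control progenitors (x axis, log scale) and of the Seh1cKO day 1 peak overlapping it (y axis, log scale). The dashed line marks equal values and the dotted line the lowest pileup called in control day 1. Most points lie near the dashed line at 0.8 to 2 FPM, the 74 members whose Seh1cKO peak touches a control day 1 peak (red) reach furthest above it, and the 3 points above 10 FPM belong to sites with a fold under 3 (orange, shown where the Seh1cKO peak touches none).

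The members with the most fragments were not those that stood highest over their surroundings. The first was chr14:19418171-19418285, 115415 bp from the nearest protein-coding gene Gm2244, with 1643 fragments in progenitors (70.2 FPM) and 708 in Seh1cKO cells (65.3 FPM). Its progenitor fold was 1.48. Near the start of the chromosome 9 assembly, about 300 kb from Alkbh8, chr9:3022074-3022244 had 550 fragments (23.5 FPM) and 252 (23.2 FPM), and chr9:3034359-3034486 had 329 (14.1 FPM) and 210 (19.4 FPM), with progenitor folds of 1.86 and 1.66. These 3 sites, and a member within Tmem267 (96 and 45 fragments) and a pair near 9230019H11Rik (62 and 60 in progenitors, 26 and 47 in Seh1cKO cells), all had a fold under 3 and a control day 1 peak within 1000 bp. The sources used here do not say how fragments with several places in the genome were treated.

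The other 6 of the 12 members highest in progenitors stood 3.62- to 9.11-fold over local background. A member within Trnt1, the enzyme that adds the CCA end to transfer RNAs (chr6:106770206-106770715), had 62 fragments (2.65 FPM, fold 9.11) and 17 in Seh1cKO cells (1.57 FPM). Within Sh3bp4, an endocytosis gene (chr1:89136287-89136582), the pileups were 51 (2.18 FPM) and 19 (1.75 FPM). Within Trio, a guanine nucleotide exchange factor gene (chr15:27797361-27797872), they were 49 (2.09 FPM) and 13 (1.20 FPM). The Trnt1 and Trio members were lower in FPM in Seh1cKO cells, at ratios of 0.592 and 0.573. Both were picked for a high progenitor value, and members of at least 1.5 FPM had a median ratio of 0.830. The part of this choice in the ratios was not tested. At Duxf3, a double homeobox gene (chr10:58231781-58232247), the values were 57 (2.44 FPM) and 29 (2.67 FPM), and near Eif1a they were 54 (2.31 FPM) and 14 (1.29 FPM). With fold 3 or more required, a limit set after the values were seen, Tiam1 and Ntm entered the highest 12. Tiam1 encodes an exchange factor for Rac and Ntm a cell adhesion protein. The member within Tiam1 (chr16:89863174-89863629) stood 11.7-fold over background in progenitors, with 47 fragments (2.01 FPM) and 10 in Seh1cKO cells (0.922 FPM). That within Ntm (chr9:29806908-29807140) had 47 and 12 fragments.

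The same limit brought in a member 32369 bp from Olig2, the transcription factor that defines the lineage (chr16:91192604-91193181). It had 49 fragments in progenitors (2.09 FPM, fold 3.75) and 27 in Seh1cKO cells (2.49 FPM), with the nearest control day 1 peak 273 bp away. Also brought in was Ss18, a subunit of the BAF chromatin remodelling complex, with a member inside the gene that stood 12.8-fold over background with 46 fragments, and 19 in Seh1cKO cells. A member 39883 bp from Gm11677 (chr11:111766184-111767016) was 833 bp wide, with 45 fragments (1.92 FPM) and 23 (2.12 FPM), and the nearest control day 1 peak was 10230 bp away. Other members near neural transcription factor genes, singled out after their values were seen, lay near Sox2 and Pou3f3. The one 11666 bp from Sox2, inside the noncoding gene Sox2ot (chr3:34664127-34664626), had 35 fragments (1.495 FPM) and 20 (1.84 FPM). The one 1200 bp from Pou3f3 (chr1:42694449-42694568) had 37 (1.58 FPM, fold 2.39) and 26 (2.40 FPM), and its Seh1cKO peak touched a control day 1 peak.

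Members highest in Seh1cKO cells, after the 3 sites already described, were all at gene ends and beside a control day 1 peak. At S100pbp the pileups were 21 fragments in progenitors and 73 in Seh1cKO cells (0.897 and 6.73 FPM, a ratio of 7.50), with a control day 1 peak 1 bp away. Near Rnf34, a ubiquitin ligase gene, the pileups were 19 and 67 (ratio 7.61), near Khdrbs1, an RNA-binding protein gene, 25 and 61 (5.27), near Pex10, a peroxisome gene, 21 and 50 (5.14), and near Ube2m, which encodes the NEDD8-conjugating enzyme, 23 and 50 (4.69). In all 5 the Seh1cKO summit lay 244 to 724 bp from the progenitor summit, outside the member.

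Members were spread thinly over the genome. They had 767 different nearest protein-coding genes, of which 706 were nearest to 1 member, 55 to 2, 5 to 3 and 1 to 4. Among 816 pairs of neighbouring members on a chromosome 13 lay within 10 kb and 61 within 100 kb, and the median spacing was 1629668 bp. By chromosome 2.06% to 2.85% of strong progenitor peaks were members. The gene with 4 was Snrpn, an imprinted splicing factor gene, but all 4 lay 122588 to 248993 bp from it, inside the long noncoding gene Snhg14 that carries arrays of small nucleolar RNAs. Their pileups were 60, 32, 25 and 21 fragments in progenitors and 19, 12, 11 and 11 in Seh1cKO cells, all with a progenitor fold of at least 4.06. They were 4 of the 21 strong progenitor peaks nearest to Snrpn. Reads in repeated copies cannot always be placed. The part of this in the calls within Snhg14, and in those at Duxf3, Gm15319 and the histone genes, was not tested.

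Csmd1, a transmembrane gene with CUB and sushi domains, held 3 members well away from control day 1 peaks. The strongest (chr8:16468713-16469040) had 41 fragments (1.75 FPM, fold 11.7) and 10 in Seh1cKO cells (0.922 FPM), and the others had 29 and 22 in progenitors and 11 and 8 in Seh1cKO cells. The closest control day 1 peak to any of them was 9301 bp away. Gse1, a corepressor gene, was nearest to members of 37, 27 and 20 fragments (17, 21 and 12 in Seh1cKO cells), and 2900026A02Rik to members of 35, 24 and 19 (11, 7 and 12). Mn1, a transcriptional coregulator gene, had members of 23, 22 and 20 fragments 72123 to 224388 bp away, with 10, 10 and 9 in Seh1cKO cells. Members of 40, 31 and 24 fragments lay 34607 to 70612 bp from Gm15319, with 18, 13 and 17 in Seh1cKO cells, all with a control day 1 peak within 730 bp. Members were 3 of the 25 strong progenitor peaks nearest to Csmd1, a gene of 1642848 bp. They were 3 of 31 for Gse1, 3 of 5 for 2900026A02Rik, 3 of 13 for Mn1 and 3 of 47 for Gm15319.

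Position against genes was not part of the choice. Of the members 139 (16.6%, interval 14.2 to 19.4) lay within 1000 bp of an annotated end of a protein-coding gene, 356 (42.6%) elsewhere within a gene, 243 (29.1%) outside but within 100 kb, and 97 (11.6%) farther away. The gene-end share was 17.2% for strong peaks of progenitors alone, 15.5% for those of both control libraries and 38.9% for those of all 3 libraries. With 19 to 27 fragments it was 16.6% for members (13.9 to 19.7) and 24.0% for peaks of all 3 libraries (23.0 to 25.03). These intervals do not overlap, but they take peaks as independent, and the classes were not tested against each other. The member share depends on nearby control day 1 peaks. Without one within 500 bp it was 8.88% of 597 members, and 8.90% of 1640 peaks of progenitors alone.

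Annotated promoter windows gave another order. They were touched by 7.90% of members (6.17 to 9.95) and by 4.78% of the peaks of progenitors alone (3.96 to 5.71). With no control day 1 peak within 500 bp these shares were 6.03% (4.26 to 8.25) and 3.78% (2.91 to 4.82), whose intervals overlap. Peaks of all 3 libraries with 19 to 27 fragments touched one in 15.8%.

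**Figure D3:**
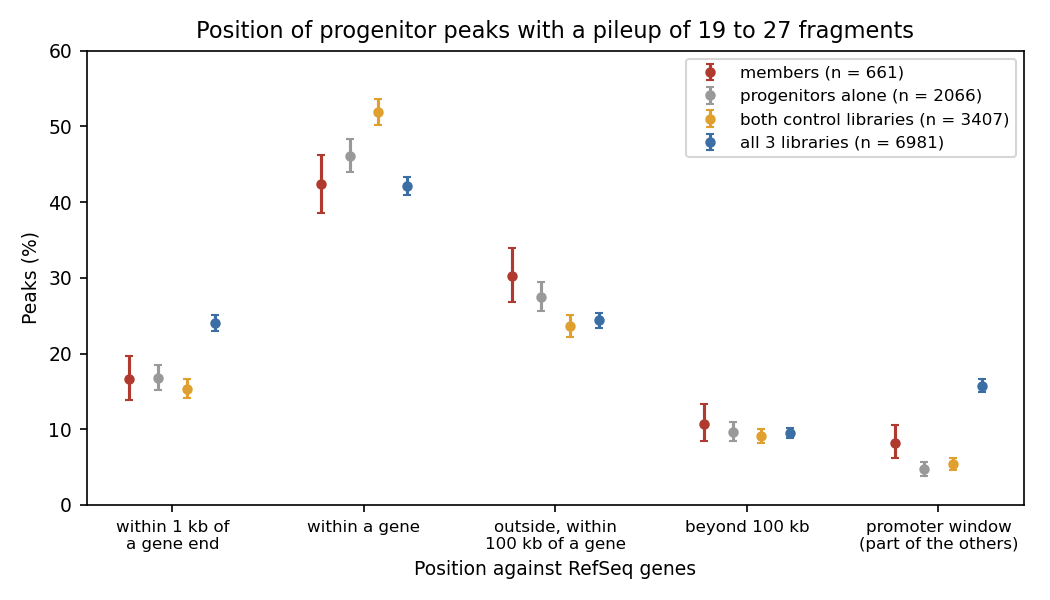
Position of strong progenitor peaks with 19 to 27 fragments against RefSeq genes (x axis) as the percent of each class (y axis), for members and for peaks of progenitors alone, of both control libraries and of all 3 libraries; bars are exact 95% intervals, and the promoter window is counted again within the other positions. Members lie near progenitors alone at gene ends, below all 3 libraries there (24.0%), and between these classes in the promoter window.

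At gene ends the members with most progenitor fragments, after Duxf3, were at H2ac10 and H4c17, histone genes, Btbd19, Hes1 and Trerf1. The pileups were 47 and 18 at H2ac10 and 39 and 21 at H4c17, in progenitors and Seh1cKO cells. Hes1, the Notch target that represses neural differentiation genes, had a member that ended 22 bp from the gene (chr16:30065163-30065335). It had 38 fragments (1.62 FPM, fold 3.51) in progenitors and 28 (2.58 FPM) in Seh1cKO cells, and the nearest control day 1 peak was 754 bp away. At Trerf1, a transcriptional regulator gene (chr17:47140964-47141389), the values were 38 (1.62 FPM) and 23 (2.12 FPM).

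Lists of genes were then read for members in the gene or 10000 bp either side. Over all autosomal protein-coding genes 697 of 20665 had one (3.37%), and of the 14641 with any strong progenitor peak 4.76%. Of the 12 lists, 10 had at least 1 gene with a member, 24 genes in all. Progenitor genes had 6 of 30, namely Pdgfra, Nxph1, Xylt1, Tnr, Sox5 and Dscam. Their loci hold many strong peaks, and 7 of 246 were members (2.85%), close to the 2.42% of all strong peaks. Without a control day 1 peak there were 32, of which Seh1cKO cells had 21.9%, against 25.8% over all loci.

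Pdgfra, the receptor for PDGF-AA, had its member across the lower-coordinate end of the gene (chr5:75151249-75151581). It had 36 fragments in progenitors (1.54 FPM, fold 3.66) and 16 in Seh1cKO cells (1.48 FPM), and the nearest control day 1 peak lay 1713 bp away. Nxph1, a neurexin ligand gene (chr6:8951328-8951630), had 39 (1.67 FPM) and 20 (1.84 FPM). Xylt1, which starts the sugar chains of proteoglycans (chr7:117553099-117553462), had 27 (1.15 FPM) and 11 (1.01 FPM), with a control day 1 peak 139 bp away. At these 3 loci the FPM levels in both libraries were close, as was the case at Tnr, the extracellular matrix gene tenascin-R, for its stronger member (25 and 11 fragments). Sox5, a transcription factor that holds progenitors undifferentiated, had 22 fragments in progenitors and 8 in Seh1cKO cells, a ratio in FPM of 0.785. Dscam, an adhesion molecule gene, had 21 and 6, a ratio of 0.617. Both Seh1cKO counts are low, and 6 is the lowest pileup called in that library, so no difference is read from them.

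Of 32 growth factor and ERK response genes 1 had a member (3.12%, near the 3.37% of all genes). This was Spry4, a feedback inhibitor of receptor tyrosine kinases, with 30 fragments in progenitors (1.28 FPM) and 48 in Seh1cKO cells (4.43 FPM). The member lies 778 bp from Spry4 and inside Arhgap26, its nearest gene. The Seh1cKO summit lay 754 bp from the progenitor summit, outside the member, and that peak covered 12.1% of the member. The Seh1cKO peak at Spry4 touched a control day 1 peak, so the list had no member without such peaks. With loci of 50000 bp either side the list had 5 genes. Of 22 genes of the Notch, BMP and Id group Hes1 and Id2 had one (9.09%). In these loci 2 of 88 strong peaks were members (2.27%), near the 2.42% of all strong peaks. Id2, whose protein binds and blocks bHLH factors, had a member 3118 bp away (chr12:25099210-25099310) with 34 fragments (1.45 FPM, fold 2.08) and 26 (2.40 FPM). A control day 1 peak lay 204 bp from the Id2 member. Of 30 cell cycle genes Cdkn1c, an inhibitor of cyclin-dependent kinases (chr7:143463855-143464134), had one, with 23 and 14 fragments, and with loci of 50000 bp 3 genes did.

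Lineage regulators had members at Tcf4, Nfix and St18 (3 of 30). In these loci 4 of 209 strong peaks were members (1.91%, against 2.42% of all strong peaks). Tcf4, the E protein that pairs with Olig factors, held 2 inside the gene, with 41 fragments (1.75 FPM, fold 8.02) and 12 in Seh1cKO cells (1.11 FPM) at the stronger. Nfix, a nuclear factor I gene (chr8:84730186-84730301), had 21 and 11 fragments, and St18, a zinc finger factor gene (chr1:6729320-6729605), 20 and 10. Of 38 strong peaks of this list without a control day 1 peak, Seh1cKO cells had 10.5%, against 25.8% over all loci. Myelin and newly formed oligodendrocyte genes had members at Tspan2, Fyn and Opalin (3 of 28 genes found). In the loci of this list 3 of 105 strong peaks were members (2.86%). Fyn, a Src family kinase gene (chr10:39542292-39542616), had 20 and 11 fragments, and Opalin, a transmembrane gene of mature oligodendrocytes (chr19:41071619-41071799), 19 and 9. The Fyn member had a progenitor fold of 2.54 and a control day 1 peak 103 bp away. Another Tspan2 member, outside the 10000 bp and named after its values were seen, lay 10348 bp from the gene (chr3:102723767-102724422). It was 656 bp wide and stood 10.9-fold over background with 38 fragments (1.62 FPM), and Seh1cKO cells had 9 (0.830 FPM).

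Thyroid hormone response genes had members at Ncoa2 and Thra (2 of 19 genes found). In these loci 2 of 74 strong peaks were members (2.70%, against 2.42% of all strong peaks). Thra encodes the thyroid hormone receptor alpha, and its member inside the gene (chr11:98765701-98766067) had 22 fragments (0.940 FPM) and 10 (0.922 FPM), with a control day 1 peak 103 bp away. Ncoa2, a coactivator of nuclear receptors (chr1:13171167-13171417), had 24 (1.03 FPM) and 9 (0.830 FPM), with the nearest 7364 bp away. Members were at 0 of 20 astrocyte and 0 of 22 microglia and macrophage markers, at 1 of 22 neuron markers (4.55%, Syt1, with 22 and 44 fragments, whose Seh1cKO peak touched a control day 1 peak) and at 1 of 24 endothelial and mural markers (4.17%, Tek, with 21 and 12). Over all genes the share was 3.37%, so nothing is read from these counts. Housekeeping genes had members at 4 of 24, among them Gapdh (27 and 18 fragments), Chmp2a (23 and 50, the same member as for Ube2m) and Eef2 (22 and 21), and 6.90% of 58 strong peaks in these loci were members. At Gapdh and Chmp2a the progenitor fold was under 3. With fold 3 or more 19 of the 24 genes of all lists had a member.

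**Figure D4:**
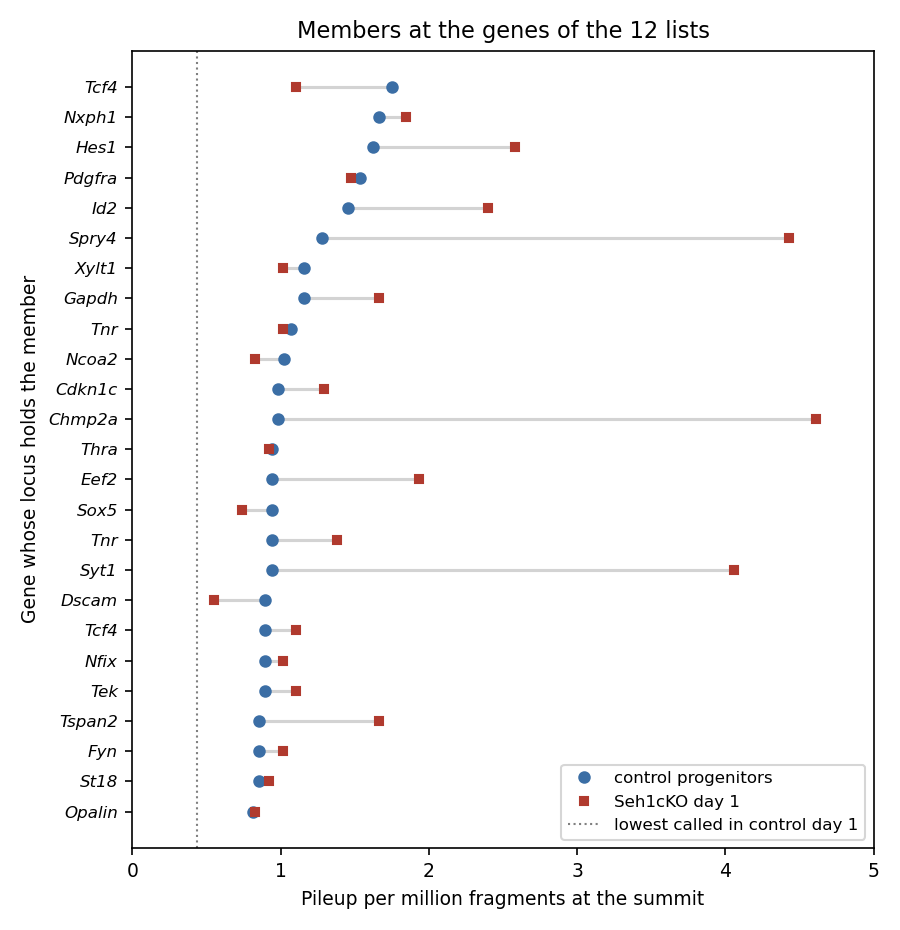
Summit pileup in FPM (x axis) in control progenitors (blue) and Seh1cKO day 1 cells (red) of members in or within 10000 bp of genes of the 12 lists (y axis, ordered by the progenitor value; 1 member is left out); the dotted line is the lowest pileup called in control day 1. Each Seh1cKO value is the summit of the overlapping peak, which lies outside the member at Chmp2a and Spry4. At Chmp2a, Spry4 and Syt1 the Seh1cKO value is above 4 FPM, and at Pdgfra, Thra, Xylt1 and Opalin both values nearly coincide.

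Across the 78 promoters that members touched, the 250 bases before the start resembled those touched by peaks of both control libraries in base composition. Some of these promoters overlap each other or belong to the same gene, so they are not independent sequences. Median GC content was 59.6%, against 52.4% over 31396 autosomal promoters, 56.4% for promoters touched by peaks of progenitors alone, 58.8% for those of both control libraries and 62.0% for those of all 3 libraries. The median number of CpG pairs was 13.5, against 6, 9, 11 and 18 in the same order. The motifs, searched as letters on both strands, were AP-1 TGANTCA, the E-boxes CAGCTG and CATCTG, Sox ACAAAG, the nuclear factor I letters TTGGCA, TEAD GGAATG, ETS CCGGAAG, the thyroid hormone receptor letters AGGTCA and RUNX TGTGGT. None contains another, and a match is a description of the letters, not a binding site.

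ACAAAG was in 3 of the 78 (3.85%, 0.8003 to 10.8), in 16.3% of all promoters, and in 18.2%, 12.9% and 10.9% of those touched by peaks of progenitors alone, both control libraries and all 3 libraries. The ETS letters were in 0 of 78 (upper limit of the interval 4.62%), in 7.01% of all promoters, and in 7.14%, 4.55% and 15.02% of the same 3 classes. The value of both control libraries lies inside the members' interval. AGGTCA was in 8 of 78 (10.3%, 4.53 to 19.2) against 14.1% of all promoters, and CAGCTG likewise in 8 against 13.0%. TGTGGT was in 5 (6.41%) against 14.0%, CATCTG in 6 (7.69%) against 14.5%, and TGANTCA in 1 (1.28%) against 6.77%. In the same 3 classes, in that order, AGGTCA was in 11.1%, 8.04% and 8.70%, and CAGCTG in 15.1%, 16.1% and 11.8%. TGTGGT was in 10.3%, 6.64% and 9.37% of them, CATCTG in 11.1%, 11.2% and 8.93%, and TGANTCA in 6.35%, 5.245% and 3.37%. Each of these class values lies inside the members' interval. GGAATG (12.8% against 12.5%) and TTGGCA (10.3% against 12.2%) were close to all promoters. Base composition moves with these counts, and its part was not tested.

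The threshold passes through a continuous range of peaks. Exactly 19 fragments were held by 134 members, and 152 peaks that met every other condition had 18. At any pileup 2713 peaks met them. Just inside were members at Mat2b, Crim1 and Tpcn2 (0.812 FPM in progenitors, and 1.38, 1.75 and 1.57 in Seh1cKO cells). Just outside were peaks at Hecw2, Slc4a3 and Zranb3 (0.769 FPM, and 0.645, 0.830 and 1.01).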

How the data were processed

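Peaks were called by the authors in each library separately with MACS 2.1.2_dev, per the file headers, on paired fragments, keeping duplicates, at q 0.05, joining gaps up to 50 bp, keeping peaks of 100 bp or longer, against a background of 10000 bp. Bowtie2, SAMtools, MACS2 and mm10 are named in the submitters' processing notes. The deposited tables give the pileup signal at the summit in fragments, the −log10 of p-value and q-value, and the fold enrichment as a ratio to local background, per the file headers. Both −log10 columns had lost their names and were told apart by order. Of control day 1 peaks 99.96% had a −log10 p that differed by under 0.01 from a Poisson value of pileup and fold.

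Pileups were divided by the fragments in each header and multiplied by 1000000 (FPM). Classes, positions, ratios and lists were computed in Python 3.11.15 with numpy 2.4.6, pandas 2.3.3 and scipy 1.17.1, and figures were drawn with matplotlib 3.10.9. The interval and overlap code was tested on simulated data. Shares have exact Clopper-Pearson intervals and medians order-statistic intervals, at 95%. Both are computed over peaks, take peaks as independent and do not cover error in fragment counts or between replicates. Of members 27.8% had another progenitor peak within 500 bp, so peaks are not all independent. Fragments carried no molecular identifiers and duplicates were kept. With 1 library per group no test was made. Gene positions came from RefSeq for 20665 autosomal protein-coding genes, 16457 of which matched an entry of the promoter table. That table gave no window for the 35 members on chromosome 18. The motif search planned for 300 bp around summits had no genome here, and was made in promoters in its place.

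The members and lists were chosen with earlier results of these data known. Genes named in the text are those nearest to the 12 members highest in progenitors, the 8 highest in Seh1cKO cells, the 6 highest at a gene end, the 8 genes nearest to most members, up to 3 genes of each list, and 3 peaks on either side of the threshold. Genes named outside this rule are marked as chosen after their values were seen, and Sox5, Dscam and Tnr are further list genes of the same kind. A withheld item is not reported here. Alternatives covered the threshold, the overlap, the authors' q, list length, scaling, sex chromosomes and window sizes.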

Additional observations from a re-analysis of the deposited data

How the results depend on the processing

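No paired analysis was possible because each group is 1 library. The number of members followed the threshold and the rules of overlap and calling. It was 1572 at 0.6 FPM or more, 350 at 1.0 and 67 at 1.5. It was 1311 where an overlap in either day 1 library counted only if it covered 50% of the progenitor peak (494 of the 835 remained). That setting asks more of the Seh1cKO peak, but lets a control day 1 peak cover less than 50% of a member. The count was 252 with Seh1cKO peaks of −log10 q at least 5, 1804 with control day 1 peaks of at least 5, and 2332 with lists of equal length (756 remained). The kept share of 25.8% became 15.4%, 31.9% and 43.2% at the 3 thresholds, 21.6% with the wider overlap, 7.78% and 34.5% with stricter Seh1cKO and control day 1 peaks, and 42.7% with equal lengths. Without Seh1cKO peaks that touch a control day 1 peak it was 23.5%, and with progenitor fold 3 or more 28.7%. These last 2 settings were chosen after seeing the data. The gene-end share of 16.6% became 21.6% with the wider overlap, 8.88% with no control day 1 peak within 500 bp, 20.2% with stricter Seh1cKO peaks, 13.5% without those that touch, 22.0% with 2000 bp windows and 9.82% within 300 bp of annotated starts. The ratio of 0.996 became 1.14, 0.913 and 0.830 at the 3 thresholds, 1.08, 0.949 and 1.30 under the overlap, 500 bp and stricter Seh1cKO settings, and 0.497 scaled by list medians. The 24 list genes became 4 at 1.5 FPM. In the other 24 settings of these 5 results the value moved by less than its interval or 1.5 times, and single lists moved in 19 of 48 settings. The search of motifs in whole peaks was not run. The cause of these changes was not tested. The lowest pileup called in Seh1cKO cells was 6 fragments, and weaker signal gives no call there.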
